A study of Mus musculus with 12 samples.

Results

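Expression of 10 genes of the Notch pathway was followed in mouse cochlear glial cells as they left sphere culture and differentiated in 3 media. The genes are the receptors Notch1, Notch2 and Notch3, the ligands Dll1 and Jag1, and the effectors Hes1, Hes5, Hey1, Hey2 and Heyl. The rule took them by gene name, and all 10 were found among the 55487 genes of the deposited table. Poly(A) RNA-seq was done on 12 libraries labelled as biological replicates, 3 from each of 4 groups. All groups began from spiral ganglion cells of mice of both sexes at postnatal day 4, on a mixed C57Bl6 and FVB/N background, with 6 to 8 mice pooled for a culture. The spheres grew for 5 to 7 days with EGF (20 ng/ml), bFGF (10 ng/ml), IGF (50 ng/ml) and heparan sulfate (50 ng/ml). The other groups were plated from such spheres and differentiated for 14 days. SCDM was DMEM/F12 with BDNF and NT3 (50 ng/ml each), and SCDM/FGF was SCDM with bFGF (100 ng/ml). FIBCL was Neurobasal medium with bFGF (100 ng/ml, and 50 ng/ml in the same label), the adenylyl cyclase activator Forskolin (20 μM), ISX9 (20 μM), the BET bromodomain inhibitor I-BET (1 μM), the GSK3 inhibitor Chir99021 (10 μM) and the cytokine LIF (1000 U/ml). Its description lists neither BDNF nor NT3, so base medium, growth factors and small molecules differed together between SCDM and FIBCL. In the table the FIBCL columns are named FIBC, a name that leaves out LIF, and were assigned to FIBCL since no other group is called anything like it.

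Notch receptors are cell surface proteins that are activated by Delta-like or Jagged ligands on a neighbouring cell. Cleavage then frees the intracellular part of the receptor, which enters the nucleus, binds the DNA-binding protein RBPJ and turns on genes of the Hes and Hey families. These encode repressors that hold back proneural factors, and in the inner ear the pathway is known for setting the balance between sensory or neuronal cells and supporting or glial cells.

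Among the 10 genes, no group had them all high or all low. Notch1 was highest in the spheres, Notch2 in SCDM and Notch3 in FIBCL. After rescaling, Hes1 stayed within a narrow range in all 4 groups, whereas Heyl and Hey1 were far lower in SCDM/FGF and FIBCL than in the spheres and SCDM. Without rescaling, Hes1 too was lower in FIBCL than in the spheres and SCDM. Hes5 and Hey2, the effectors with the lowest levels, were highest in the spheres. Of the ligands, Jag1 was highest in SCDM and Dll1 in the spheres.

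The values are TPM (the share of each gene in all transcripts of a library), which are corrected for transcript length, so levels of different genes can be set side by side. TPM keeps no read number, and the depth of the libraries is therefore unknown. Each library was rescaled to the average library, and levels below are scaled TPM. Differences are log2 fold changes of scaled TPM + 1, which understate the change of genes at low levels. They were tested with limma, and p-values were adjusted by Benjamini-Hochberg (BH) over 16016 genes, those that reached 1 TPM in 3 or more libraries. The p-values measure the spread between these libraries. Rescaling moved the median difference over all genes from -0.40 to -0.072 in FIBCL against SCDM, from -0.31 to -0.053 in FIBCL against SCDM/FGF and from -0.51 to -0.058 in FIBCL against spheres. It moved it from -0.13 to -0.014 in SCDM against spheres and from -0.22 to -0.020 in SCDM/FGF against spheres. Among genes past the test, 45.6% to 50.5% were higher in the first group over the 6 comparisons, and 21.4% to 39.1% without rescaling.

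Markers of several cell types were present in these bulk cultures. The 8 markers of cochlear glia, the labelled starting cells, all had a mean of at least 1 TPM in the spheres, and their summed level was 479 to 504 there, 158 to 183 in SCDM, 169 to 194 in SCDM/FGF and 15.9 to 20.8 in FIBCL. The 8 neuronal markers summed to 12.2 to 21.7 outside FIBCL and to 396 to 422 in FIBCL. The 8 mesenchymal markers summed to 2048 to 2086 in the spheres, 4687 to 4847 in SCDM, 3219 to 3240 in SCDM/FGF and 162 to 176 in FIBCL. Macrophage markers (8 genes) summed to 90.8 to 109 in the spheres, 1238 to 1468 in SCDM and SCDM/FGF, and 158 to 183 in FIBCL. Gene by gene, 1 of these 8 was higher and 7 were lower in FIBCL against the spheres at an adjusted p under 0.05. In that comparison 71.6% of all genes passed. All 8 had a mean of at least 1 TPM in the spheres, and 3 did in FIBCL. Markers of pericytes and smooth muscle (8 genes) summed to 150 to 159 in the spheres, 232 to 265 in SCDM, 89.8 to 109 in SCDM/FGF and 10.5 to 11.4 in FIBCL. The endothelial list (8 genes) summed to 111 to 114, 43.0 to 51.6, 267 to 307 and 13.4 to 14.7 in the same order, with Cldn5 at 0 in all SCDM libraries and Cldn5 and Emcn at 0 in all FIBCL libraries. Of the 6 hair cell markers, whose sum was 6.77 to 48.0, Pou4f3 was at 0 in the spheres, SCDM and SCDM/FGF and Otof at 0 in SCDM and SCDM/FGF. Fewer cells of a type and less RNA per cell cannot be told apart in such libraries.

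The promoters of Hes5 and Hey2 are shown because they hold the letters to which RBPJ is known to bind, and that of Notch3 because it is the receptor with the largest rise in FIBCL. The windows are the 250 bases before the RefSeq transcription start (GRCm38.p6), written 5′ to 3′ on the strand of the gene. They are chr4:154960673-154960922 on the plus strand for Hes5, chr10:30842784-30843033 on the minus strand for Hey2 and chr17:32166891-32167140 on the minus strand for Notch3. Capitals mark GTGGGAA or its reverse complement in Hes5 and Hey2, and CACNAG on either strand in Notch3, of which the first match also reads CACGNG.
Hes5: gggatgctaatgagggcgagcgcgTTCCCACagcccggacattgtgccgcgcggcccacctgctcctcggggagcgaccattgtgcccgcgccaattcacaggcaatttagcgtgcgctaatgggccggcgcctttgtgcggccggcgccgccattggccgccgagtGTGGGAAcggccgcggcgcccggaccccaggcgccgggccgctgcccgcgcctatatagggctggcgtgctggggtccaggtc
Hey2: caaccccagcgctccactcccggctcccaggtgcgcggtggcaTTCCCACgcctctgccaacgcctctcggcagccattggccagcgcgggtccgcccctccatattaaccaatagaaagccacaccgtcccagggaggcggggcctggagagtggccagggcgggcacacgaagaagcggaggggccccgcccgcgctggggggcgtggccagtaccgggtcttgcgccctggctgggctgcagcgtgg
Notch3: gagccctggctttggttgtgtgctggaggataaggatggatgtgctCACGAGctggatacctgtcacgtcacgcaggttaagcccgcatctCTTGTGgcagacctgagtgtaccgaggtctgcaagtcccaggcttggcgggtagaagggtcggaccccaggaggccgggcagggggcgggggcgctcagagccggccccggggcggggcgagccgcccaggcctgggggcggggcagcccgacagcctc
A RefSeq window was at hand for 7 of the 10 genes, with a pair of windows for Dll1 and 8 in all. Hes1, Hey1 and Heyl had no window and were not examined. Counted back from -1 at the last base before the start, GTGGGAA lay at -83 to -77 in Hes5 and its reverse complement at -226 to -220 in Hes5 and at -207 to -201 in Hey2. It was in neither Dll1 window and not in the windows of Notch1, Notch2, Notch3 and Jag1, and 5.42% of all 32851 promoter windows held it on either strand in these 250 bases. Its shorter core TGGGAA, which overlaps it, was in 21.6% of windows and, among the 7 genes with a window, in Hes5 and Hey2 only. The N-box CACNAG, a site of Hes repressors, was in 36.7% of windows and in those of Notch1, Notch2 and Notch3. The class C site CACGNG, also bound by Hes and Hey proteins, was in 23.5% of windows and in those of Dll1, Jag1, Notch2 and Notch3. These letter matches are a description and were not tested as binding sites.

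Most of the 9 tested genes differed between groups, as did many genes of the table. In FIBCL against SCDM, 3 were higher and 4 lower at an adjusted p under 0.05, while 71.7% of all genes tested passed in either direction (32.7% higher and 39% lower). Against SCDM/FGF, 5 were higher in FIBCL and 1 was lower (all genes, 70.7%, with 32.5% higher and 38.2% lower). Against the spheres, FIBCL had 1 higher and 4 lower (all genes, 71.6%, with 32.9% and 38.7%). SCDM had 3 higher and 3 lower than the spheres (50.3%, with 24.5% and 25.8%), and SCDM/FGF had 1 higher and 6 lower (50.4%, with 25% and 25.4%). With bFGF added, in SCDM/FGF against SCDM, 6 were lower and 0 higher by limma (all genes, 43.1%, with 21.8% higher and 21.3% lower), and 1 more, Hey2, was higher at an unadjusted p under 0.05. These comparisons share their groups and are not independent of each other. Differences of at least 1 on the log2 scale were fewer. There was 1 higher and 1 lower in FIBCL against SCDM (all genes, 29.3%, with 13.2% higher and 16.2% lower), 1 higher and 0 lower against SCDM/FGF (27.8%, with 12% and 15.8%) and 1 higher and 3 lower against the spheres (28.1%, with 12.5% and 15.5%). In each of the 3 comparisons without FIBCL, 3 were lower and 0 higher by limma. The shares over all genes were 12.4% (6.94% higher and 5.46% lower) in SCDM against spheres, 12.1% (7.39% and 4.73%) in SCDM/FGF against spheres and 9.77% (5.73% and 4.04%) in SCDM/FGF against SCDM.

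Hes5 never reached 1 TPM and was not tested. Hey2 reached 1 TPM only in the 3 sphere libraries, Heyl in the 6 libraries of spheres and SCDM, Dll1 in 5 libraries (3 of them spheres) and Hey1 in 10. Such genes entered the test through the groups where they were high, so that the counts above carry no weight for the set as a whole. Their p-values against those groups have the same limit.

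**Figure D1:**
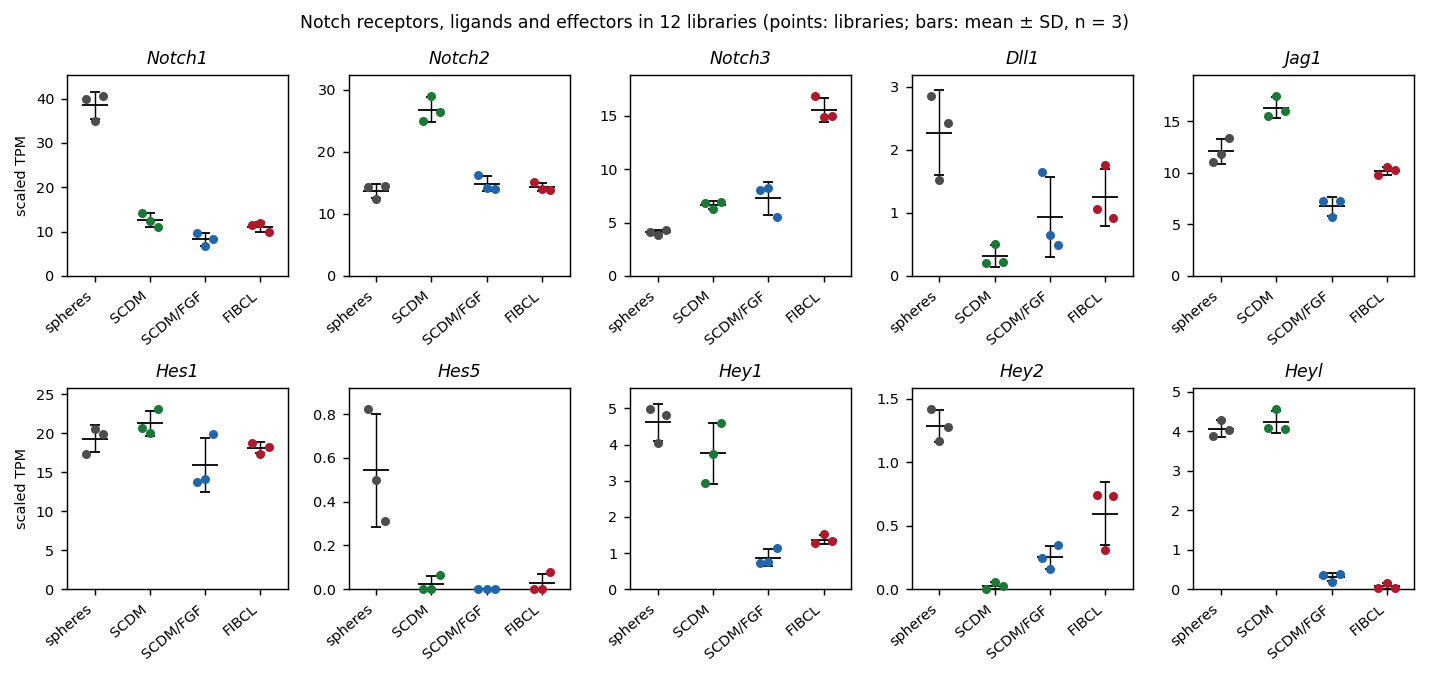
Scaled TPM (y axes, each from 0) of the 10 genes in each library of the 4 groups (x axes), with points for libraries and bars for the mean ± SD of 3 libraries. Notch1 was above 35 only in the spheres, Notch3 above 14 only in FIBCL, and Heyl was near 4 in the spheres and SCDM and below 0.4 in SCDM/FGF and FIBCL.

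Notch1 (chromosome 2, 26457903 to 26516663, minus strand, GENCODE annotation of GRCm38), the receptor best known from neural progenitors, was at 39.95, 35.04 and 40.57 scaled TPM in the spheres, at 14.12, 12.49 and 10.98 in SCDM, at 9.73, 6.84 and 8.27 in SCDM/FGF and at 11.5, 11.9 and 9.87 in FIBCL. Every sphere library lay above every library of differentiated cells, and SCDM lay above SCDM/FGF without overlap. Against the spheres, Notch1 fell by 1.55 ± 0.13 (SE) in SCDM, by 2.10 ± 0.13 in SCDM/FGF and by 1.71 ± 0.13 in FIBCL (limma, BH-adjusted p = 1.26e-06, 1.16e-07 and 2.01e-07, n = 3 per group). It was also lower in SCDM/FGF than in SCDM (-0.55 ± 0.13, adjusted p = 0.00398 by limma). Between FIBCL and SCDM the difference was -0.16, with a 95% interval from -0.44 to 0.11 (adjusted p = 0.263 by limma). Without rescaling it was -0.53 and passed the test (adjusted p = 0.00476), as it did with the TPM sums of the libraries made equal (-0.42). Notch1 was 0.39 ± 0.13 higher in FIBCL than in SCDM/FGF (adjusted p = 0.016 by limma), and it no longer passed without FIBCL replicate 2, without SCDM/FGF replicate 2 or without rescaling, where the value was 0.10. The summed glial markers fell along with Notch1 from the spheres to the differentiated cells. Between the media the order was not the same. The glial sum was 158 to 183 in SCDM, 169 to 194 in SCDM/FGF and lowest in FIBCL (15.9 to 20.8), whereas Notch1 was lowest in SCDM/FGF. The part of the glial markers in the result was not tested.

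A pair of genes transcribed from the opposite strand overlap Notch1, and the sources used here say only that reads were aligned with an orientation mode. The first, 0610009E02Rik, was at a mean of 14.1 ± 2.7 scaled TPM (SD, n = 3) in the spheres, against 3.47 ± 0.21 with SCDM, 3.14 ± 0.88 with SCDM/FGF and 4.75 ± 0.83 with FIBCL. The other, Gm13568, was at 11.1 ± 1.3, 3.27 ± 0.43, 1.43 ± 1.15 and 4.27 ± 0.90. Both were highest in the spheres, as Notch1 was, and the share of Notch1 reads that could belong to them is uncertain.

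Notch2 (chromosome 3, 98013527 to 98150361, plus strand), a receptor with broad expression, was at 14.3, 12.4 and 14.5 in the spheres, at 24.99, 28.98 and 26.43 in SCDM, at 16.3, 14.2 and 14.1 in SCDM/FGF and at 15.1, 14.0 and 13.9 in FIBCL. The SCDM libraries stood above all others, and the other 3 groups overlapped. In SCDM against the spheres Notch2 rose by 0.92 ± 0.083 (limma, BH-adjusted p = 3.26e-06). Against SCDM the difference was -0.81 ± 0.083 in SCDM/FGF and -0.86 ± 0.083 in FIBCL, and both passed the test (limma, adjusted p = 1.08e-05 and 2.26e-06). FIBCL and SCDM/FGF differed by -0.045 (95% interval -0.23 to 0.14), FIBCL and spheres by 0.063 (-0.12 to 0.25), and SCDM/FGF and spheres by 0.11 (-0.074 to 0.29), none of which passed. The sign of each of these 3 small differences depended on the scaling, and without rescaling Notch2 was lower in FIBCL than in the spheres and passed (-0.45, adjusted p = 0.00183). The summed mesenchymal markers were also highest in SCDM, although 3 of the 8 genes were higher and 4 lower in SCDM against the spheres and 3 higher and 3 lower in SCDM/FGF against SCDM. Their part in the result was not tested.

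Notch3 (chromosome 17, 32120820 to 32166852, minus strand), a receptor known from pericytes and vascular smooth muscle, was at 4.09, 3.84 and 4.30 in the spheres, at 6.87, 6.24 and 6.95 in SCDM, at 8.06, 8.24 and 5.50 in SCDM/FGF and at 16.9, 14.9 and 15.0 in FIBCL. FIBCL was above every other library and the spheres were below them, while SCDM and SCDM/FGF overlapped. Notch3 was higher in FIBCL by 1.11 ± 0.13 against SCDM, by 1.02 ± 0.13 against SCDM/FGF and by 1.71 ± 0.13 against the spheres (limma, BH-adjusted p = 8.5e-06, 1.83e-05 and 2.14e-07). Under the 4 other scalings these differences stayed between 0.73 and 1.77 and passed the test. SCDM and SCDM/FGF were above the spheres by 0.60 and 0.69 (limma, adjusted p = 0.00201 and 0.000797), and their own difference was 0.088 (95% interval -0.19 to 0.36). Without SCDM/FGF replicate 3, the lowest of its group, that difference was 0.25 and passed (adjusted p = 0.0411). The summed level of the pericyte and smooth muscle markers was lowest in FIBCL, where Notch3 was highest, and 6 of the 7 tested genes of that list were lower and 1 higher in FIBCL against SCDM. The neuronal markers were highest in FIBCL, and their part in the result was not tested.

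With Notch4, the endothelial member of the family, counted in, the 4 receptors summed to 59.9 ± 5.2 scaled TPM (SD, n = 3) in the spheres, and to 47.0 ± 1.6, 44.0 ± 3.1 and 41.2 ± 2.4 with SCDM, SCDM/FGF and FIBCL. The make-up of that sum differed more than its size, and shares within a library do not depend on the scaling. Notch1 held 64.3% ± 0.64 of it in the spheres, and 26.7% ± 3.2, 18.7% ± 2.2 and 26.9% ± 1.9 with SCDM, SCDM/FGF and FIBCL. Notch2 held 57.0% ± 3.1 in SCDM, against 22.9% ± 0.21 in the spheres, 33.8% ± 0.61 in SCDM/FGF and 34.8% ± 0.77 in FIBCL. Notch3 rose from 6.82% ± 0.25 in the spheres to 14.3% ± 1.3 and 16.5% ± 3.4 with SCDM and SCDM/FGF, and to 37.8% ± 1.3 in FIBCL. Notch4 held 31.0% ± 3.2 in SCDM/FGF, 5.98% ± 0.91 in the spheres, 2.08% ± 0.68 in SCDM and 0.511% ± 0.034 in FIBCL.

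**Figure D2:**
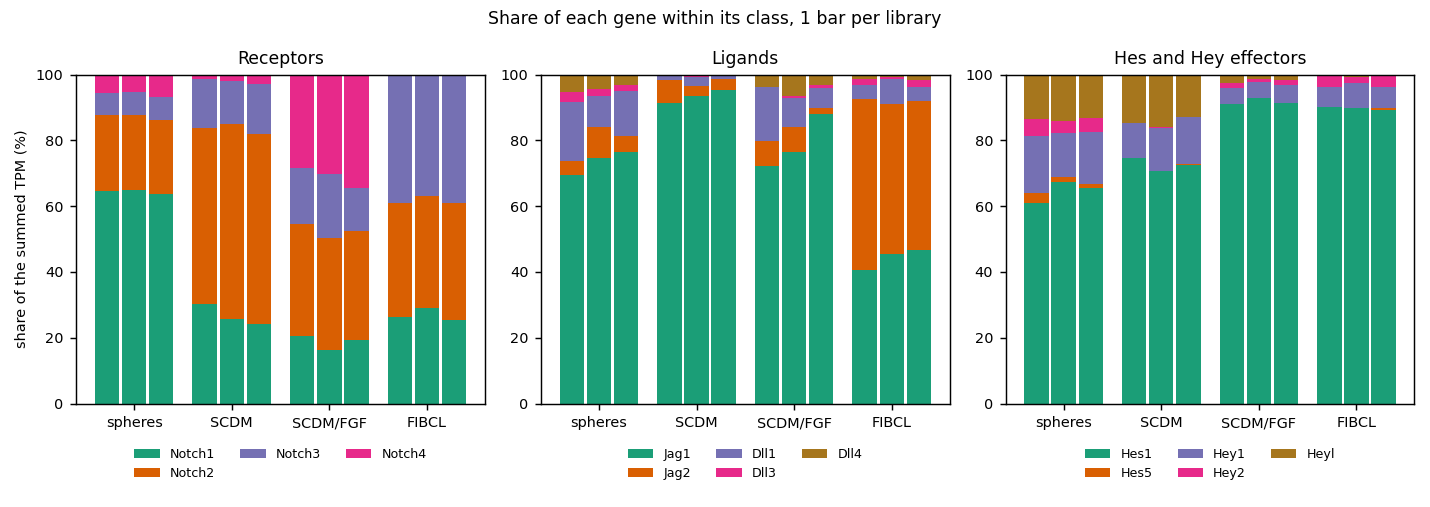
Share (y axes, % of the summed TPM of the class) of each gene among 4 receptors, 5 ligands and 5 effectors, with 1 stacked bar per library and the libraries grouped by medium (x axes). The largest receptor share passed from Notch1 in the spheres (63.6% to 64.8%) to Notch2 in SCDM (53.6% to 59.5%), Jag2 took 45.5% to 51.8% of the ligands in FIBCL only, and Hes1 held at least 89.3% of the effectors in SCDM/FGF and FIBCL.

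The level of Notch4 itself was 3.57, 2.81 and 4.45 in the spheres, 0.648, 1.02 and 1.26 in SCDM, 13.5, 12.6 and 14.7 in SCDM/FGF and 0.239, 0.197 and 0.197 in FIBCL. The 4 groups did not overlap. Adding bFGF to SCDM went with a Notch4 level 2.90 ± 0.15 higher (limma, BH-adjusted p = 3.28e-08). FIBCL differed from SCDM/FGF by -3.59 ± 0.15 (limma, adjusted p = 1.34e-09), although both media held bFGF. The summed endothelial markers had the same order of groups, although 3 of the 8 genes had a mean of at least 1 TPM in SCDM/FGF and 6 had it in the spheres. Of the 7 tested endothelial genes, 3 were higher and 2 lower in SCDM/FGF against SCDM, and 2 were higher and 2 lower against the spheres. Their part in the result was not tested.

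Jag1 (chromosome 2, 137081456 to 137116644, minus strand), the Jagged ligand of the early sensory domain of the ear, was at 11.04, 11.83 and 13.37 in the spheres, at 15.49, 17.45 and 15.96 in SCDM, at 7.30, 5.72 and 7.26 in SCDM/FGF and at 9.81, 10.6 and 10.3 in FIBCL. The 4 groups did not overlap, in the order SCDM, spheres, FIBCL, SCDM/FGF. Against the spheres the difference in Jag1 was 0.41 ± 0.098 in SCDM and -0.76 ± 0.098 in SCDM/FGF (limma, BH-adjusted p = 0.00486 and 6.07e-05), so that with bFGF it fell by 1.16 ± 0.098 from SCDM (limma, adjusted p = 2.14e-06). FIBCL differed from SCDM by -0.62 ± 0.098 (limma, adjusted p = 0.000129) and from SCDM/FGF by 0.54 ± 0.098 (adjusted p = 0.000423), and the latter passed no longer without rescaling (0.25, adjusted p = 0.0502). The difference between FIBCL and the spheres was -0.22 (95% interval -0.44 to -0.0029, adjusted p = 0.0649 by limma). Without rescaling it was -0.72 and passed, and so did the value without spheres replicate 1 (-0.28).

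Dll1 (chromosome 17, 15367354 to 15376872, minus strand), the Delta-like ligand of committed neuronal precursors, was low throughout, at 2.85, 1.53 and 2.43 in the spheres, 0.200, 0.514 and 0.227 in SCDM, 1.66, 0.655 and 0.488 in SCDM/FGF and 1.07, 1.76 and 0.920 in FIBCL. SCDM lay below the spheres and FIBCL, and the other groups overlapped. In SCDM against the spheres Dll1 fell by 1.30 ± 0.24 (limma, BH-adjusted p = 0.000799), and with a pseudocount of 0.1 by 2.55. FIBCL was 0.77 ± 0.24 above SCDM (limma, adjusted p = 0.0131), or 1.73 with that pseudocount, but without FIBCL replicate 2 the value was 0.62 with an adjusted p of 0.0593. Without SCDM/FGF replicate 2 or 3, or without spheres replicate 1 or 3, the fall of 0.78 in SCDM/FGF against the spheres (adjusted p = 0.0173 by limma) did not pass, with values down to -0.62. FIBCL and the spheres differed by -0.54 (95% interval -1.06 to -0.012, adjusted p = 0.0627 by limma), which passed without rescaling (-0.86) and without FIBCL replicate 2 or spheres replicate 2.

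Among 5 canonical ligands, Jag1 held 93.4% ± 2.0 of the summed level in SCDM, 73.5% ± 3.6 in the spheres and 78.9% ± 8.1 in SCDM/FGF, but 44.2% ± 3.1 in FIBCL. There Jag2, a ligand of hair cells and neural tissue, held 47.7% ± 3.6, against 4.43% to 6.10% on average in the other groups. Jag2 was at 12.5, 10.63 and 10.02 in FIBCL and at no more than 1.50 in any other library, and it was 2.78 ± 0.21 higher in FIBCL than in SCDM (limma, BH-adjusted p = 2.16e-07). It would not have entered the test without the FIBCL libraries, so this p-value has the limit given above for such genes. Dll4, the endothelial Delta-like ligand, had means of 0.706 in the spheres, 0.373 in SCDM/FGF, 0.304 in FIBCL and 0.066 in SCDM and, like Dll3, did not reach the level needed for a test. The sum of the 5 ligands was 23.2 ± 1.1 in FIBCL and 8.61 ± 1.34 in SCDM/FGF, with 16.4 ± 0.93 in the spheres and 17.5 ± 1.1 in SCDM.

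Hes1 (chromosome 16, 30064384 to 30067796, plus strand), the most general of the Hes repressors, was at 17.3, 20.6 and 19.9 in the spheres, at 20.7, 20.1 and 23.1 in SCDM, at 13.8, 14.2 and 19.9 in SCDM/FGF and at 18.8, 17.4 and 18.3 in FIBCL. SCDM/FGF replicate 3 lay among the spheres, apart from the other SCDM/FGF libraries. From SCDM to SCDM/FGF, Hes1 fell by 0.41 ± 0.12 (limma, BH-adjusted p = 0.0186), and this did not pass without SCDM/FGF replicate 1 (-0.32, adjusted p = 0.0744), SCDM/FGF replicate 2 or SCDM replicate 3. No other difference passed by limma. Those of FIBCL were -0.22 against SCDM (95% interval -0.49 to 0.052), -0.080 against the spheres (-0.35 to 0.19) and 0.19 against SCDM/FGF (-0.078 to 0.46). Without SCDM/FGF replicate 3, Hes1 in SCDM/FGF was lower than in FIBCL, which was 0.35 above it, and lower than in the spheres (-0.43), and both passed (adjusted p = 0.00421 and 0.00208). Without rescaling, the difference of Hes1 in FIBCL was -0.60 against SCDM and -0.60 against the spheres, and both passed (adjusted p = 0.000691 and 0.000653), as they did with equal TPM sums. In SCDM/FGF against the spheres it was -0.49 without rescaling and -0.48 with equal sums. Both of these passed by limma (adjusted p = 0.00411 and 0.00489). With the usual scaling but only FIBCL and SCDM in the model, the difference between them was -0.22 and also passed (adjusted p = 0.0227). The all-gene medians without rescaling were -0.40 in FIBCL against SCDM, -0.51 in FIBCL against the spheres and -0.22 in SCDM/FGF against the spheres.

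Hes5 (chromosome 4, 154960923 to 154962371, plus strand), a repressor of neural progenitors and glia whose promoter is shown above, was at 0.822, 0.498 and 0.311 in the spheres. It was listed at 0 in 7 of the 9 libraries of differentiated cells, with 0.0661 in SCDM replicate 3 and 0.0788 in FIBCL replicate 3. All sphere libraries lay above all others, but with fewer than 1 TPM in every library Hes5 was not tested.

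Hey1 (chromosome 3, 8663359 to 8667256, minus strand), a Hey repressor of the developing cochlea and vessels, was at 4.97, 4.03 and 4.83 in the spheres, at 2.93, 3.74 and 4.60 in SCDM, at 0.735, 0.745 and 1.14 in SCDM/FGF and at 1.27, 1.53 and 1.33 in FIBCL. The spheres and SCDM overlapped and lay above the rest, and FIBCL lay just above SCDM/FGF. Spheres and SCDM differed by -0.25 (95% interval -0.56 to 0.065, adjusted p = 0.173 by limma). With bFGF, Hey1 fell by 1.34 ± 0.14 from SCDM (limma, BH-adjusted p = 1.53e-05), and in FIBCL the difference was -0.99 ± 0.14 against SCDM and -1.24 ± 0.14 against the spheres (limma, adjusted p = 6.61e-05 and 1.07e-05). Its 0.35 ± 0.14 rise in FIBCL against SCDM/FGF (limma, adjusted p = 0.0472) was lost without any one of the 3 FIBCL libraries, without SCDM/FGF replicate 1 or 2, and without rescaling (0.17, adjusted p = 0.310).

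Heyl (chromosome 4, 123233556 to 123249875, plus strand), the Hey factor known from vascular smooth muscle and pericytes, was at 3.88, 4.29 and 4.04 in the spheres, at 4.09, 4.56 and 4.06 in SCDM, at 0.372, 0.191 and 0.376 in SCDM/FGF and at 0.0359, 0.160 and 0.0394 in FIBCL. The spheres and SCDM overlapped, and both lay above SCDM/FGF, which lay above FIBCL. With bFGF, Heyl fell by 2.00 ± 0.10 from SCDM (limma, BH-adjusted p = 2.93e-08), and in FIBCL the difference was -2.28 ± 0.10 against SCDM and -2.23 ± 0.10 against the spheres (limma, adjusted p = 2.31e-09 and 3.02e-09). With a pseudocount of 0.1 the first and second of these differences were -3.43 and -4.67. Heyl entered the test only through the spheres and SCDM, so its p-values against them have the limit given above. SCDM and spheres differed by 0.046 (95% interval -0.18 to 0.27). The difference of -0.28 between FIBCL and SCDM/FGF (limma, adjusted p = 0.0253) did not pass after quantile normalization (-0.065, adjusted p = 0.600) or without FIBCL replicate 1 or 3 or SCDM/FGF replicate 1 or 3. The pericyte and smooth muscle markers also summed lower in SCDM/FGF and FIBCL than in the spheres and SCDM. Of the 7 tested genes of that list, 1 was higher and 4 were lower in SCDM/FGF against SCDM, and 1 was higher and 6 were lower in FIBCL against SCDM. Their part in the result was not tested.

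Hey2 (chromosome 10, 30832359 to 30842801, minus strand), a Hey repressor of supporting cells and vessels, was at 1.42, 1.16 and 1.28 in the spheres, at 0, 0.0560 and 0.0283 in SCDM, at 0.245, 0.161 and 0.346 in SCDM/FGF and at 0.742, 0.308 and 0.736 in FIBCL. The spheres lay above and SCDM below all other libraries, and FIBCL replicate 2 lay among the SCDM/FGF libraries. Hey2 entered the test only through the 3 sphere libraries, and with any 1 of them left out it was not tested. Its p-values against the spheres therefore carry no weight. In SCDM against the spheres Hey2 fell by 1.15 ± 0.13 (limma, BH-adjusted p = 1.68e-05), or by 3.45 with a pseudocount of 0.1. In FIBCL the difference was 0.62 ± 0.13 against SCDM, or 2.39 with that pseudocount, and -0.53 ± 0.13 against the spheres (limma, adjusted p = 0.00096 and 0.00289). Its 0.34 ± 0.13 difference from SCDM/FGF (limma, adjusted p = 0.0317) was lost without rescaling (0.23) and without FIBCL replicate 1 or 3 or SCDM/FGF replicate 1 or 2. Between SCDM/FGF and SCDM the difference was 0.28 (95% interval 0.00030 to 0.56, adjusted p = 0.1 by limma), or 1.44 with that pseudocount, where it passed (adjusted p = 0.00749). The order of the Hey2 means was spheres, FIBCL, SCDM/FGF and SCDM, whereas for Heyl it was SCDM, spheres, SCDM/FGF and FIBCL.

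**Figure D3:**
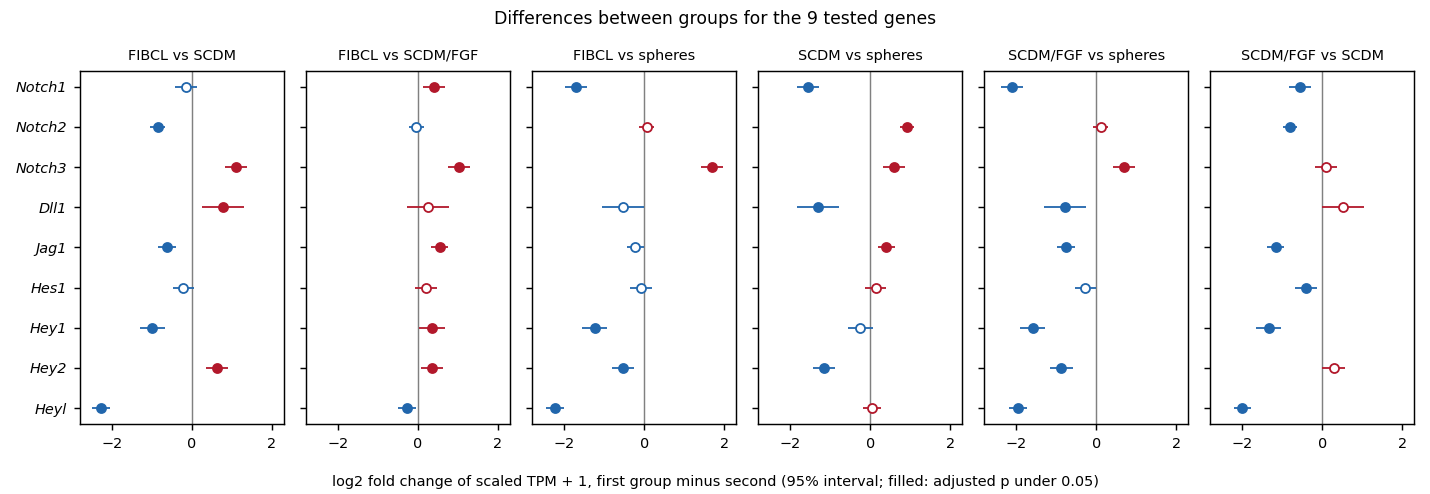
Log2 fold changes of scaled TPM + 1 (x axes, first group minus second, with 95% intervals) of the 9 tested genes (rows) in 6 comparisons (panels), filled where the adjusted p was under 0.05. Heyl had the lowest value in FIBCL against SCDM (-2.28) and in SCDM/FGF against SCDM (-2.00), and Notch3 was above 1 in each FIBCL comparison (1.11, 1.02 and 1.71).

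The 3 Hey genes together summed to 9.97 ± 0.42 in the spheres and 8.02 ± 0.89 in SCDM, but only to 2.05 ± 0.054 in FIBCL and 1.44 ± 0.39 in SCDM/FGF (SD, n = 3). Within that sum Heyl held 53.2% ± 5.9 in SCDM, 41.0% ± 3.9 in the spheres, 21.7% ± 5.2 in SCDM/FGF and 3.89% ± 3.59 in FIBCL. Hey1 held 67.2% ± 8.1 and Hey2 28.9% ± 11.7 in FIBCL, whereas Hey2 held 0.332% ± 0.336 in SCDM. Of all 5 effectors, Hes1 made up 91.8% ± 0.92 in SCDM/FGF, 89.7% ± 0.44 in FIBCL, 72.6% ± 2.0 in SCDM and 64.6% ± 3.3 in the spheres.

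A list of 79 other genes of the pathway was compared in the same fit, of which 62 were tested. In FIBCL against SCDM, 20 of them were higher and 31 lower, or 82.3% in either direction beside 71.7% of all genes, with a median log2 fold change of -0.20 beside -0.072 over all genes. Without rescaling 15 were higher and 38 lower. Against SCDM/FGF 19 were higher and 34 lower (median -0.28, all genes -0.053, with 70.7% of all genes called). Against the spheres 18 were higher and 33 lower in FIBCL (median -0.28, all genes -0.058, with 71.6% called), but 8 and 44 without rescaling and 11 and 43 with equal TPM sums. The whole table moved the same way, to 2666 higher and 9821 lower without rescaling and 3124 and 9016 with equal sums. In SCDM against the spheres 8 were higher and 27 lower (median -0.15, all genes -0.014, with 50.3% called), and in SCDM/FGF against the spheres 11 and 26 (median -0.12, all genes -0.020, with 50.4% called). In SCDM/FGF against SCDM 18 were higher and 14 lower (median 0.016, all genes -0.016, with 43.1% called). That balance turned to 15 higher and 17 lower without rescaling (median -0.065) and to 15 and 18 with equal sums, and by quantile normalization the median was -0.0084. Over all genes there were 2738 higher and 4261 lower without rescaling, and 2749 and 4279 with equal sums. The counts of the smaller lists below, in FIBCL against SCDM, stand beside 71.7% of all genes called there (32.7% higher and 39% lower). Their counts without rescaling stand beside the 3280 and 8922 above, and those with equal TPM sums beside 3750 higher and 8091 lower. For the genes named here, the highest and lowest of each group in FIBCL against SCDM, the direction of every called difference from SCDM was the same under the 4 other scalings.

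Genes that act on the ligands and receptors at the cell surface differed in both directions. Dner, a neuronal transmembrane protein proposed as a non-canonical ligand, was at 50.0, 53.5 and 49.9 in FIBCL and at 1.24, 1.30 and 0.387 in SCDM, 4.76 ± 0.17 higher (limma, BH-adjusted p = 3.45e-10), with 10.5 to 10.9 in the spheres. Dlk1, a non-canonical ligand of precursor cells, was at 85.2 to 95.5 in the spheres, 22.1 to 48.4 in SCDM/FGF, 6.94 to 9.20 in SCDM and 8.39 to 9.38 in FIBCL, and the last 2 groups overlapped. Of 5 sugar transferases that modify the receptors, 3 were lower and 0 higher in FIBCL against SCDM by limma (all genes, 71.7% called). All 5 were lower without rescaling or with equal TPM sums, so how this share compares with that of all genes depended on the scaling. Lfng, the Fringe enzyme that favours Delta-like over Jagged ligands, fell by 2.16 ± 0.20 (limma, adjusted p = 1.3e-06), while Poglut1, which adds glucose to the receptor, was at 36.1 to 38.9 in SCDM and 37.7 to 38.9 in FIBCL. Of 4 ubiquitin ligases that let ligands be taken up, 3 were lower, among them Mib2 (-1.15 ± 0.088, adjusted p = 2.82e-07 by limma), and Neurl1a was higher (0.73 ± 0.14, adjusted p = 0.00055).

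For the 10 genes of receptor cleavage, 3 were higher and 6 lower in FIBCL against SCDM, where 71.7% of all genes were called. Adam10, the protease of the first ligand-dependent cut, was at 116, 115 and 113 in FIBCL and at 51.0, 55.1 and 49.4 in SCDM, 1.13 ± 0.049 higher (limma, BH-adjusted p = 2.1e-09). Psenen, a subunit of the γ-secretase that makes the second cut, fell by 1.04 ± 0.062 (limma, adjusted p = 3.2e-08). In SCDM/FGF against SCDM, 6 of the 10 were higher and 0 lower by limma (all genes, 43.1% called), and 1 was lower under 3 of the other scalings.

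In the nuclear complex of RBPJ, Mastermind-like proteins and acetyltransferases, 6 of 8 genes were lower and 0 higher in FIBCL against SCDM by limma, with a median of -0.40. The share called was near that of all genes (71.7%, of which 39% lower). The count was 6 to 8 lower and 0 higher under the 4 other scalings. Rbpj, the DNA-binding protein of the pathway, was at 25.8, 25.2 and 28.1 in the spheres, 37.8, 36.7 and 38.4 in SCDM, 73.6, 91.0 and 65.4 in SCDM/FGF and 17.7, 17.4 and 17.1 in FIBCL, with no overlap between groups. The difference from SCDM was -1.07 ± 0.096 in FIBCL (limma, BH-adjusted p = 1.16e-06) and 0.99 ± 0.096 in SCDM/FGF (limma, adjusted p = 6.77e-06), where Hes1, Hey1 and Heyl were lower. Kat2b, an acetyltransferase, fell by 1.60 ± 0.13 in FIBCL against SCDM (limma, adjusted p = 4.41e-07), and Ep300, another, differed by 0.082 (adjusted p = 0.530).

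Corepressors and negative regulators held both large rises and large falls. In FIBCL against SCDM, 5 of 11 corepressors were higher and 4 lower (all genes, 71.7% called), but 2 were higher and 6 lower without rescaling and 2 and 4 with equal TPM sums, where the median turned from 0.20 to -0.19 and -0.079. There was a difference of 1.37 ± 0.075 for Tle3 and -2.23 ± 0.062 for Tle1, both Groucho family partners of Hes proteins (limma, BH-adjusted p = 1.5e-08 and 5.45e-11). Of 10 tested negative regulators 3 were higher and 6 lower. Dtx1, a Deltex ubiquitin ligase that acts on the receptors, was at 20.6, 19.6 and 17.0 in FIBCL and at no more than 1.34 in any other library, and its relative Dtx3l was at 0.538, 0.370 and 0.315 in FIBCL and at 3.66 or more elsewhere. Nrarp, a feedback inhibitor that is itself a target of the pathway, did not reach the level needed for a test.

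**Figure D4:**
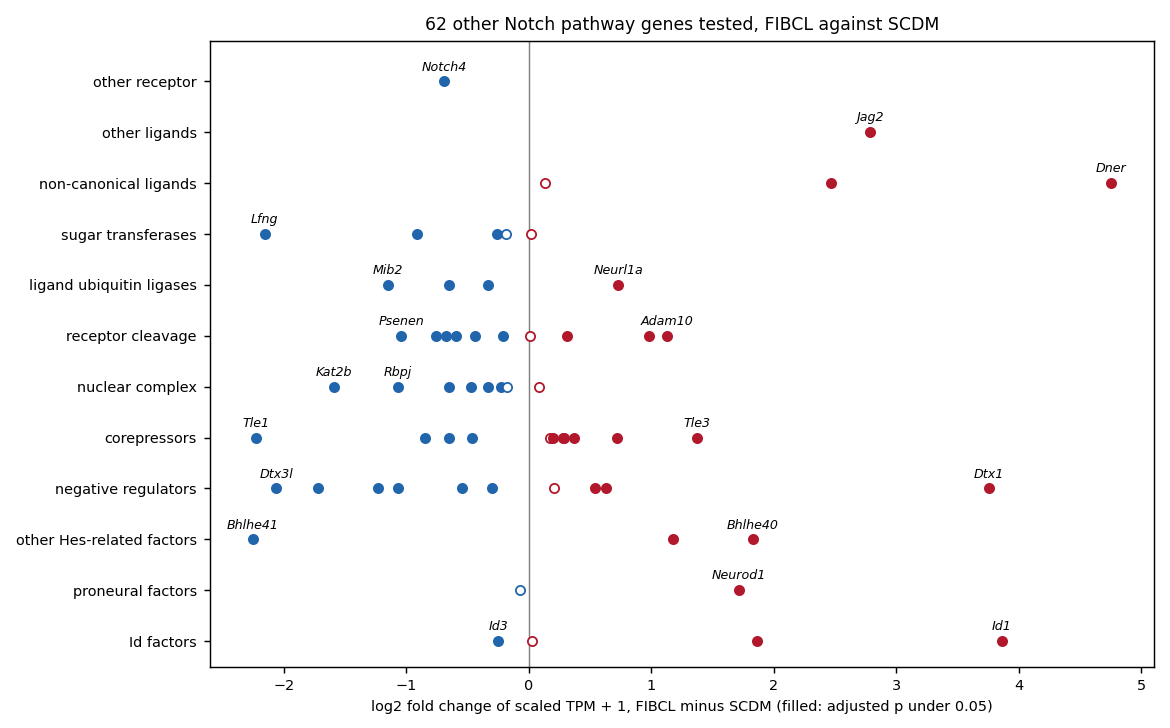
Log2 fold changes of scaled TPM + 1 in FIBCL against SCDM (x axis) for the 62 tested genes of the wider pathway, grouped by role (rows), filled where the adjusted p was under 0.05 and named at the highest and lowest of each row where these passed, with Rbpj. Dner (4.76), Id1 (3.86), Dtx1 (3.75) and Jag2 (2.78) lay far to the right, and Bhlhe41 (-2.26), Tle1 (-2.23) and Lfng (-2.16) far to the left.

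The targets of the Hes and Hey repressors include proneural factors, most of which were too low to test. Of 12 proneural factors 10 stayed below the limit, among them Neurog1, Atoh1 and Insm1. Neurod1, a factor of differentiating spiral ganglion neurons, was at 2.03, 2.13 and 2.71 in FIBCL, at 0 in all SCDM libraries and at no more than 0.0302 in the spheres and SCDM/FGF. Among 4 Id factors, which block proneural factors by pairing with their partners, 2 were higher and 1 lower in FIBCL against SCDM. Id1 was at 419, 433 and 466 in FIBCL and at 27.4 to 30.5 in SCDM, 3.86 ± 0.098 higher (limma, BH-adjusted p = 2.64e-11). Id3 fell by 0.25 ± 0.090 (limma, adjusted p = 0.0265), which did not pass after quantile normalization. Of the other Hes-related repressors, Hes2, Hes3 and Hes7 were too low to test. The difference between FIBCL and SCDM was 1.83 ± 0.086 for Bhlhe40 and -2.26 ± 0.12 for Bhlhe41 (limma, adjusted p = 3.97e-09 and 9.31e-09), although the pair are close relatives. In FIBCL, then, Id1 was at a higher level than Hes1, whose mean was 18.2, and in SCDM the means were 29.3 and 21.3.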

How the data were processed

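Poly(A) RNA of the 12 libraries was sequenced by the authors. Per the labels' processing notes and the study's methods, trimming was by SeqPrep and Sickle, alignment by TopHat in an orientation mode and expression estimates by RSEM, and the notes also list Cufflinks. The genome build is not given in the sources used here. The deposited table holds TPM per gene with 2 decimals, although the methods name fragments per kilobase. Its library sums were 899295 to 911076 in FIBCL and at least 982067 elsewhere, and 21625 to 22281 genes were above 0. A table column without a sample occurred 0 times. TPM keeps no depth, so no counting interval is given and no count test was run.

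Libraries were rescaled by a trimmed mean of log ratios (30% from each end) over the 8434 genes that reached 5 TPM in every library. For 16016 genes, which reached 1 TPM in 3 or more libraries, log2(scaled TPM + 1) of all 12 libraries was fitted by group in limma 3.58.1 (R 4.3.3) with a variance trend, and 6 comparisons were tested two-sided with Benjamini-Hochberg adjustment (Python 3.11.15, pandas 2.3.3 and matplotlib 3.10.9 for the rest). Called means an adjusted p under 0.05. On simulated data for FIBCL against SCDM, 200 of 16016 genes were changed by 2 on the log2 scale. Of these, 198 were recovered, and 14 unchanged genes were called. In the libraries themselves 71.7% of genes were called in that comparison. Recovery and false calls with so large a share of genes changed were not tested. The part of the rescaling in them was not tested either. Alternatives were 4 other scalings, pseudocounts of 0.1 and 0.5, other filters (none, or 5 TPM), no variance trend, only the groups compared, a replicate block, stricter thresholds and leaving out each library. Samples were grouped by their labels.

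The genes, lists and alternatives were chosen with earlier results of these data known. Genes named are the 10 chosen ones, the highest and lowest tested gene of each pathway list in FIBCL against SCDM, Rbpj, Neurod1, Dll4 and Jag2, and, for each chosen gene, the 3 genes nearest to it in pattern. Marker genes at 0, the genes overlapping Notch1 and the examples of genes too low to test were named besides. Results of 2 genes that this rule names are not reported here. Gene positions come from GENCODE M21 (GRCm38), which held 55141 of the 55487 identifiers.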

Additional observations from a re-analysis of the deposited data

Results flagged for a closer look

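The change from the spheres differed between SCDM and SCDM/FGF for 6 of the 9 tested genes, by the limma contrast of SCDM/FGF against SCDM, beside 43.1% of all genes. As stated above, such a count carries no weight for the set as a whole. For Jag1 the change was 0.41 in SCDM and -0.76 in SCDM/FGF, a difference of -1.162 (BH-adjusted p = 2.14e-06), so that it rose in one medium and fell in the other, in 3 of 3 libraries each. For Hey1 the changes were -0.25 and -1.59, a difference of -1.337 (adjusted p = 1.53e-05). For Heyl they were 0.046 and -1.95, a difference of -1.997 (adjusted p = 2.93e-08). Heyl entered the test only through the spheres and SCDM, where it was high, so this p-value has the limit given above. The changes of Hey1 and Heyl in SCDM did not pass the test, and those in SCDM/FGF did. For Notch1 the changes were -1.55 and -2.10, a difference of -0.549 (adjusted p = 0.00398). For Notch2 they were 0.92 and 0.11, a difference of -0.8097 (adjusted p = 1.08e-05). For Hes1 they were 0.14 and -0.27, a difference of -0.409 (adjusted p = 0.0186), and neither change passed alone.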

How the results depend on the processing

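Of 986 values of the 9 tested genes under the alternatives, 888 kept direction and call, 62 lost the call, 24 gained one and 12 changed sign, none of them called before. The signs that changed were those of Hes1 in FIBCL against SCDM/FGF (-0.11 without rescaling) and in SCDM against spheres (-0.00017), of Heyl in SCDM against spheres (-0.072 without rescaling, -0.019 by quantile normalization, -0.062 with equal TPM sums), and of Notch2 in SCDM/FGF against spheres (-0.11 and -0.095 without rescaling and with equal sums), in FIBCL against spheres (-0.45, -0.32, and -0.0049 without spheres replicate 2) and in FIBCL against SCDM/FGF (0.061 by quantile normalization, -0.083 to 0.016 with 1 library left out, the highest without SCDM/FGF replicate 1). Counts of called genes among the 10 moved most in FIBCL against SCDM/FGF. There the 5 higher became 1 without rescaling, 2 with equal sums, 3 with the filter at 5 TPM, 2 at an adjusted p under 0.01, 1 with a fold rule (log2 of at least 1) and 2 to 6 with 1 library left out (2 without SCDM/FGF replicate 2 and 6 without SCDM/FGF replicate 3), and the 1 lower became 2 without rescaling and 0 by quantile normalization, with either other filter, with only those groups fitted, at 0.01 and with the fold rule, and 0 to 1 with 1 library left out. In FIBCL against spheres the 4 lower became 8 without rescaling or with equal sums, and 1 with the 5 TPM filter. Over all genes, the 6194 lower there became 9821 without rescaling and 9016 with equal sums. In FIBCL against SCDM/FGF the 5205 higher over all genes became 3337 and 3942. In SCDM/FGF against SCDM the 0 higher became 2 with a pseudocount of 0.1 and 0 to 1 with 1 library left out. With the 5 TPM filter, FIBCL against SCDM had 1 higher and 2 lower, SCDM against spheres 1 lower and SCDM/FGF against spheres 2 lower, by construction of fewer genes tested. With only FIBCL and SCDM fitted, 1 was higher. Dll1 and Hey2 did not reach 1 TPM in 3 of those libraries and were not tested there. Heyl dropped out in the same way with only FIBCL and SCDM/FGF fitted. The fold rule left 1 higher and 1 lower in FIBCL against SCDM, 0 higher in SCDM and in SCDM/FGF against spheres, 3 lower in SCDM/FGF against spheres and 3 lower in SCDM/FGF against SCDM. It left 4695, 4459, 4496, 1986, 1942 and 1564 genes called in the 6 comparisons, in place of 11480, 11327, 11470, 8054, 8075 and 6910. The cause of the other changes was not tested. Replicate numbers did not pair the libraries (correlation of same-numbered deviations -0.121 to 0.0976), and a replicate block changed 0 of 54 calls, with 11391 genes called in FIBCL against SCDM. Values under 1 TPM (Hes5, Hey2, Dll1 and Heyl in some groups) have an unknown read number behind them.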

Other observations

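The genes nearest in pattern to each of the 9 tested genes were found over the 12 libraries, by the root mean square difference of log2(scaled TPM + 1) after each gene was centred on its own mean. A small value says only that the profiles were alike. Nearest to Heyl were Megf10, an engulfment receptor, at 0.162, Kcnma1, a calcium-activated potassium channel, at 0.180 and Cntn3, a contactin adhesion protein, at 0.199, beside a range of 2.42 for Heyl itself. Mean Megf10 levels were 14.8 in the spheres and 15.4, 4.02 and 2.99 with SCDM, SCDM/FGF and FIBCL. Mean Cntn3 levels were 6.93, 7.82, 0.777 and 0.519 in the same order. Notch1, with a range of 2.41, was nearest to the stress-induced factor Atf3 (0.163), to Stk32b (0.186) and to the calcium channel subunit Cacnb1 (0.192). Mean Atf3 levels were 186 in the spheres and 60.5, 45.8 and 53.1 with the same media.

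Notch2 was nearest to the atypical cadherin Fat1 (0.0833), Arhgef2 (0.0943) and the tRNA synthetase Aars (0.101), and Notch3 to Clpb (0.136), Adam15 (0.141) and Ppa1 (0.142). Jag1 was nearest to Gpsm1 (0.131), Pdzrn3 (0.135) and Cnn3 (0.137). Dll1 had the most distant neighbours, Map3k12 (0.212), Nol4l (0.219) and Scara3 (0.245). For Hes1, whose range was 0.703, Upf2 (0.0925), Zfp869 (0.108) and Spata2 (0.116) were nearest. Hey1 was nearest to Gadd45b (0.206), Tafa5 (0.209) and Abtb2 (0.212), and Hey2 was close to Clic5 (0.148) and Lacc1 (0.149).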
